A study of Trichosurus vulpecula with 6 samples.

Results

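The heat shock and chaperone genes described here are 9 listed genes, with none dropped for its level: HSPA8, HSP90AB1, HSP90AA1, HSPH1, DNAJB1, HSPB1, HSPA5, HSPD1 and HSPE1. The list was chosen with earlier results of these data known. Transcripts assembled from possum skin were assigned to RefSeq genes by exon overlap on the same strand, and otherwise by the gene name that the guide annotation gave them. By this rule 8 of the 9 genes were found, among 18149 genes with transcripts. HSPE1, the cochaperonin of the mitochondrial matrix, matched no gene symbol in the RefSeq table and no gene name in the files, so its level was not analysed here.

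The libraries came from ear punches of adult female brushtail possums (Trichosurus vulpecula), wild animals killed in pest control near Dunedin, New Zealand. There were 3 libraries from possums with black fur and 3 from possums with grey fur, the agouti form of the species. The labels give neither genotype, exact age, litter nor sampling day, so p-values measure only the spread between these libraries. Each library was made from 250 ng of RNA, enriched for poly(A), kept strand information and was read as 120 bp single reads, giving 7.58, 8.51 and 6.47 aligned gigabases in black 1 to 3 and 4.17, 8.37 and 10.2 in grey 1 to 3. Of 10 keratinocyte markers, TP63, PKP1 and SFN were measured, summing to 1132 to 1481 TPM in black and 977 to 1793 TPM in grey, while the other 7, keratins among them, had no transcript under their symbols, and 0 of 5 erythroid markers did.

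Chaperones bind unfolded proteins and help them to fold, using cycles of ATP binding in the HSP70, HSP90 and chaperonin families. Some, such as HSPA8 and HSP90AB1, are made in all cells at all times, whereas others, such as HSPH1 and DNAJB1, are raised by the transcription factor HSF1 when proteins are damaged by heat or other stress. The endoplasmic reticulum (ER) and the mitochondrion have chaperones of their own, HSPA5 and the HSPD1 and HSPE1 pair, which respond to unfolded protein in those compartments. In skin, HSPB1 is known as the small heat shock protein of the differentiating epidermis.

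No measured chaperone gene passed the test of black against grey skin. Levels are in TPM, an abundance that scales reads to transcript length and library size, and were summed over the transcripts of a gene. Of the 8 genes, 0 passed an adjusted p of 0.05 in either direction (limma on log2(TPM + 1), Benjamini-Hochberg over 15636 genes), 0 had an unadjusted p under 0.05, and in 0 did the black and grey libraries separate. Over all genes tested, 3 passed (0.0192%; 0.0128% higher and 0.0064% lower in black), 365 had an unadjusted p under 0.05 (2.33%) and 999 had groups that did not overlap (6.39%). The log2 fold changes of the 8 genes lay between -0.23 and 0.31, 4 positive and 4 negative, with a median of -0.02 beside 0.04 for all genes. At a fixed exon length per gene, a scale defined with HSPA8, the 8 genes again gave counts of 0, 0 and 0. Over all genes on that scale 0.0477% passed (0.0136% higher and 0.0341% lower in black), 2.13% had an unadjusted p under 0.05 and 5.94% did not overlap. The 95% intervals were wide, the widest from -1.07 to 0.73, so differences of the size seen here were not detectable with 3 libraries per colour.

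Their levels placed 7 of the 8 genes in the top 5% of genes, the 7 averaging from 149 to 739 TPM over the 6 libraries, while HSPH1 averaged 36.9 TPM. As ear punches mix cell types, fewer cells of a type and less RNA per cell cannot be told apart in any of these values.

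**Figure D1:**
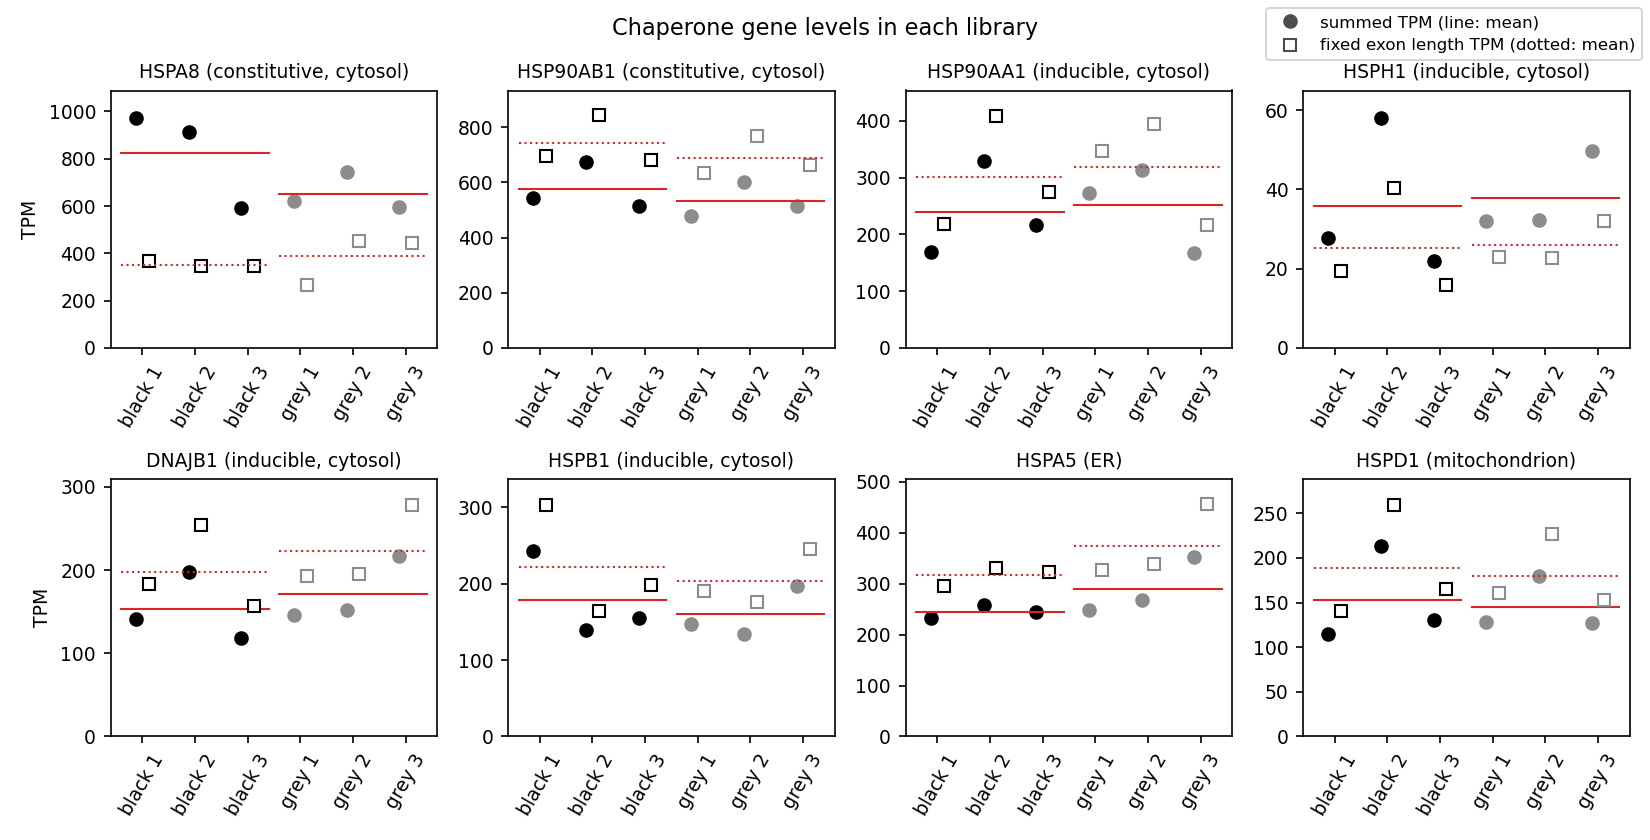
Level of each of the 8 measured genes in each library, in TPM on a linear axis from 0, with black libraries left and grey libraries right. Filled circles are summed TPM, open squares are TPM over a fixed exon length, and red lines are colour means. Black and grey points overlap in every panel on both scales. The squares lie below the circles in HSPA8 and HSPH1 and above them in the other panels. The fixed length of HSPH1, 6752 bases, includes a transcript of 4107 bases from grey 3.

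HSPA8 encodes the constitutive HSP70 of the cytosol, which folds new proteins and strips clathrin from vesicles. It lies on the plus strand of chromosome 2 (266186064 to 266191514, assembly mTriVul1.pri). Its summed level was 973, 912 and 590 TPM in black 1 to 3, against 621, 742 and 595 TPM in grey 1 to 3. Black 1 and black 2 were the highest libraries and black 3 the lowest, so the groups overlapped. The log2 fold change was 0.31 (SE 0.23, 95% interval -0.24 to 0.87, limma adjusted p 1.00).

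The summed level of HSPA8 depended on how its mRNA was assembled. Transcripts that overlapped each other formed 3, 2 and 2 separate pieces in black 1 to 3, and 2, 1 and 1 in grey 1 to 3, while each of the other 7 genes formed 1 piece in each library. Each transcript was scaled to its own length, so an mRNA assembled as several partial transcripts was counted more than once in a sum. This held in grey 2 too, where transcripts of 366 and 340 TPM did not overlap and were joined only by a transcript of 35.9 TPM. The number of pieces did not order the sums: black 3, with 2 pieces, had 590 TPM, and grey 2, with 1, had 742 TPM. With coverage divided by 1 exon length for all libraries (2438 bases, a scale chosen after seeing the data), HSPA8 stood at 366, 347 and 345 TPM in black, against 267, 451 and 444 TPM in grey. On that scale the grey libraries held both extremes, and the log2 fold change was -0.10 (95% interval -0.63 to 0.43), opposite in sign to that of the summed level. The fixed scale still depends on the assembly, as bases not assembled in a library add no coverage. Grey 1, the lowest library on it, had the fewest assembled bases, 1880. Black 1, however, had 1925 assembled bases and 366 TPM, and black 3, with the most bases (2511), had 345 TPM. The part of unassembled bases in the low level of grey 1 was not tested.

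**Figure D2:**
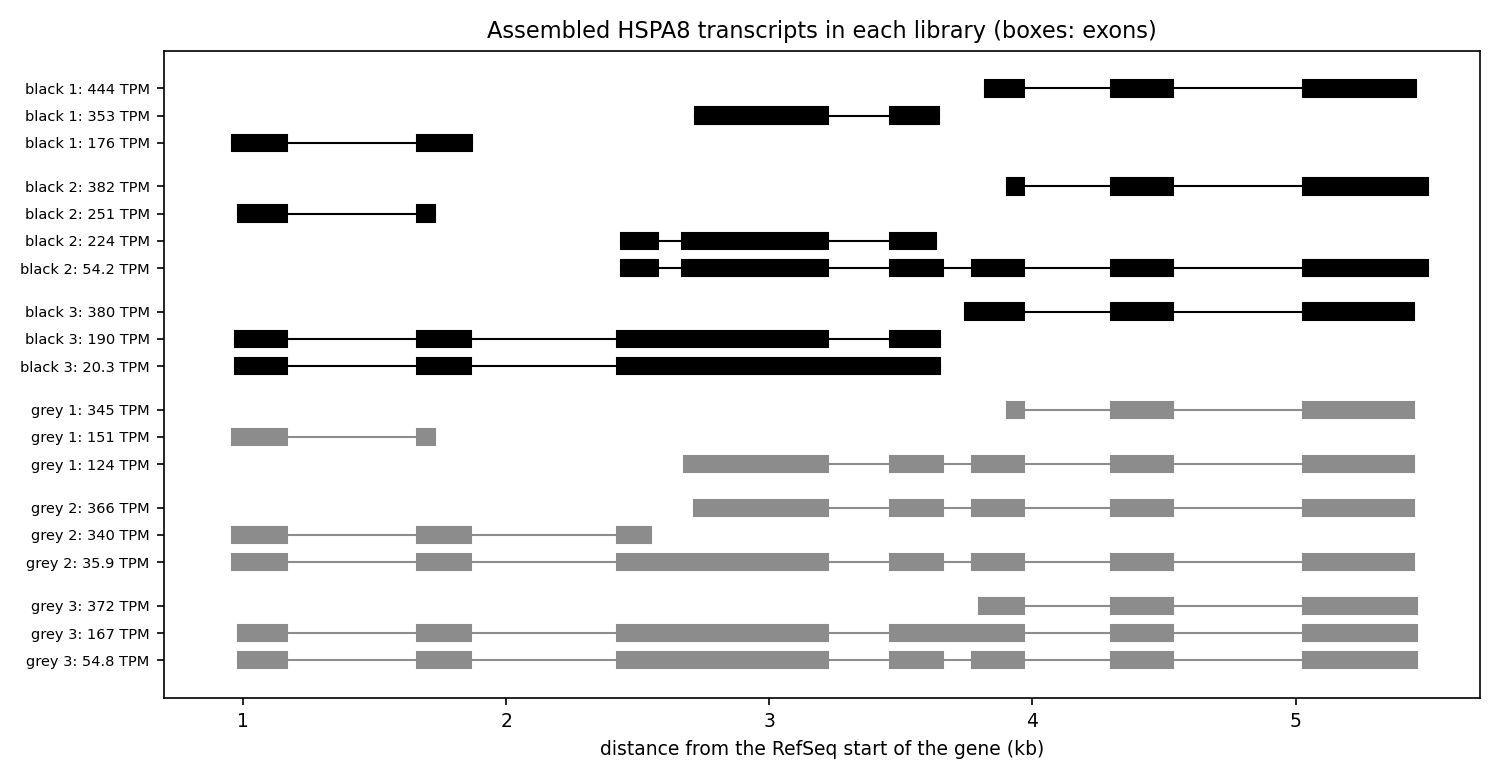
Assembled HSPA8 transcripts in each library, drawn by distance in kilobases from the RefSeq start of the gene, with exons as boxes, introns as lines and each transcript's TPM at the left. The black 1 rows form 3 separate pieces, black 2, black 3 and grey 1 form 2, and in grey 2 and grey 3 a longer transcript joins the pieces into 1.

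Coverage along HSPA8 was uneven. The ratio of coverage near the 3′ end to coverage near the 5′ end was 17.6, 6.95 and 3.25 in black 1 to 3, against 14.2, 1.59 and 2.51 in grey 1 to 3. In HSPA5, a gene of the same family, the ratio was 1.23 to 1.26 in black and 1.12 to 1.38 in grey. The steepest HSPA8 ratios belonged to black 1, of middling depth, and to grey 1, the shallowest library. HSPA5 in the same libraries was nearly level. Black 1 had no HSPA8 exon assembled between 1.869 and 2.716 kb from the RefSeq start, and grey 1 none between 1.728 and 2.677 kb. These gaps lie where the 5′ coverage was taken, so the ratios do not separate uneven reads from gaps in the assembly.

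A pair of loci held single-exon transcripts that carried the name HSPA8 in the guide annotation. LOC118842918 on chromosome 3 (268725120 to 268727337, plus strand), a pseudogene in RefSeq, had 107, 99.2 and 100 TPM in black, against 73.0, 87.1 and 146 TPM in grey. LOC118845756 on chromosome 4 (77267549 to 77269710, minus strand), annotated as protein coding, had 56.3, 50.6 and 50.0 TPM in black, against 51.7, 51.9 and 79.4 TPM in grey. In grey 1 that sum held 36.7 TPM of the single-exon transcript and 15.0 TPM of a shorter spliced transcript without the name. Both loci were highest in grey 3. Of the coverage summed over HSPA8 and these loci, the loci took 30.9% to 31.9% in black and 24.3% to 34.4% in grey. How alike the sequences of HSPA8 and both loci are was not measured. Reads that match more than 1 of these genes can be placed at any match, so the levels of HSPA8 and of both loci are uncertain. Coverage summed over the 3 loci was 501, 499 and 476 bases per aligned megabase in black, within the grey range of 364, 546 and 665.

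HSP90AB1, the constitutive cytosolic HSP90, which keeps kinases and steroid receptors in an activatable state, was the steadiest of the genes. It lies on chromosome 7 (240080898 to 240086962, minus strand). It had 545, 674 and 514 TPM in black 1 to 3, against 477, 603 and 513 TPM in grey 1 to 3. Replicate 2 was the higher library in both colours, and the log2 fold change was 0.12 (SE 0.18, 95% interval -0.30 to 0.54). Its log2 SD within a colour was 0.19, beside a median of 0.28 over 9232 genes of at least 10 TPM.

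HSP90AA1, on chromosome 3 (16202099 to 16208836, minus strand), encodes the stress-inducible cytosolic HSP90. Its level was 170, 330 and 217 TPM in black 1 to 3, against 273, 313 and 168 TPM in grey 1 to 3. Grey 3 and black 1 were the lowest libraries and black 2 and grey 2 the highest, with black 3 and grey 1 between them, so the colours overlapped throughout. The log2 fold change was -0.08 (SE 0.33, 95% interval -0.86 to 0.70). The level of HSP90AB1 was 3.21, 2.05 and 2.37 times that of HSP90AA1 in black, against 1.75, 1.93 and 3.06 times in grey, so the constitutive form was above the inducible one in all 6 libraries.

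HSPH1, the HSP110 protein that swaps nucleotides on HSP70, spread most. It lies on chromosome 2 (192009368 to 192040272, minus strand). It had 27.8, 58.0 and 21.9 TPM in black 1 to 3, against 32.0, 32.2 and 49.6 TPM in grey 1 to 3. Black libraries held both the highest and the lowest value, and the log2 SD within a colour was 0.56, larger than in 84.8% of genes of at least 10 TPM. The log2 fold change was -0.17 (SE 0.38, 95% interval -1.07 to 0.73).

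DNAJB1, on chromosome 1 (74266879 to 74271102, plus strand), is the inducible HSP40 that hands clients to HSP70. Its level was 141, 198 and 118 TPM in black 1 to 3, against 146, 152 and 217 TPM in grey 1 to 3. Grey 3 and black 2 were the highest libraries for DNAJB1, as they were for HSPH1, and black 3 was the lowest for both. DNAJB1 had a log2 fold change of -0.18 (SE 0.25, 95% interval -0.78 to 0.42).

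HSPB1, a small heat shock protein that holds unfolded clients without ATP, lies on chromosome 7 (20683183 to 20686310, minus strand). It had 242, 140 and 155 TPM in black 1 to 3, against 148, 134 and 197 TPM in grey 1 to 3. Black 1 was the highest and grey 3 came next. The log2 fold change was 0.14 (SE 0.26, 95% interval -0.48 to 0.76), and without black 1 it was -0.10. Black 1 also held skeletal muscle RNA: all 12 of 12 muscle markers were highest there, with a summed level of 4875 TPM, beside 81.4 and 139 TPM in the other black libraries and 81.9 to 92.7 TPM in grey. The part of this muscle RNA in the level of HSPB1 was not tested.

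HSPA5, the HSP70 of the ER lumen (BiP), on chromosome 3 (129497040 to 129502721, minus strand), was nearly level in 5 libraries. It had 233, 257 and 244 TPM in black 1 to 3, against 248, 268 and 353 TPM in grey 1 to 3. Grey 3 stood above the rest, while grey 1 and grey 2 lay close to the black range. The log2 fold change was -0.23 (SE 0.18, 95% interval -0.65 to 0.19), and without grey 3 it was -0.08. HSP90B1, the HSP90 of the ER, was also highest in grey 3. It had 209, 225 and 223 TPM in black, against 200, 198 and 298 TPM in grey. Of the 21 listed ER chaperones, HSP90B1 included, only 6 were highest in grey 3. Others, such as ERP29 (51.8 TPM) and SIL1 (23.4 TPM), were lowest there. The level of HSPA5 was 1.11, 1.14 and 1.09 times that of HSP90B1 in black, all below 1.24, 1.35 and 1.18 times in grey, and the colours stayed apart at fixed exon length; this ratio was chosen after its values were seen and was not tested.

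HSPD1, the chaperonin of the mitochondrial matrix, had 114, 213 and 130 TPM in black 1 to 3, against 129, 180 and 127 TPM in grey 1 to 3. Replicate 2 was the highest library of each colour, as for HSP90AB1 and HSP90AA1, and the other 4 libraries lay close together. HSPD1 had a log2 fold change of 0.04 (SE 0.28, 95% interval -0.62 to 0.70). Beside HSPA9, the mitochondrial HSP70, the level of HSPD1 was 0.985 to 2.30 times as high in black, against 1.35 to 1.92 times as high in grey.

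HSPD1 is on the minus strand of chromosome 2 (259816048 to 259827653), and 187 bases lie between it and LOC118839292 on the plus strand (259827841 to 259875731), so the genes run away from each other. The annotation gives that locus no name. Its level was 105, 138 and 119 TPM in black, against 108, 124 and 88.3 TPM in grey. Like HSPD1 it was highest in black 2, but its lowest library was grey 3, whereas that of HSPD1 was black 1.

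**Figure D3:**
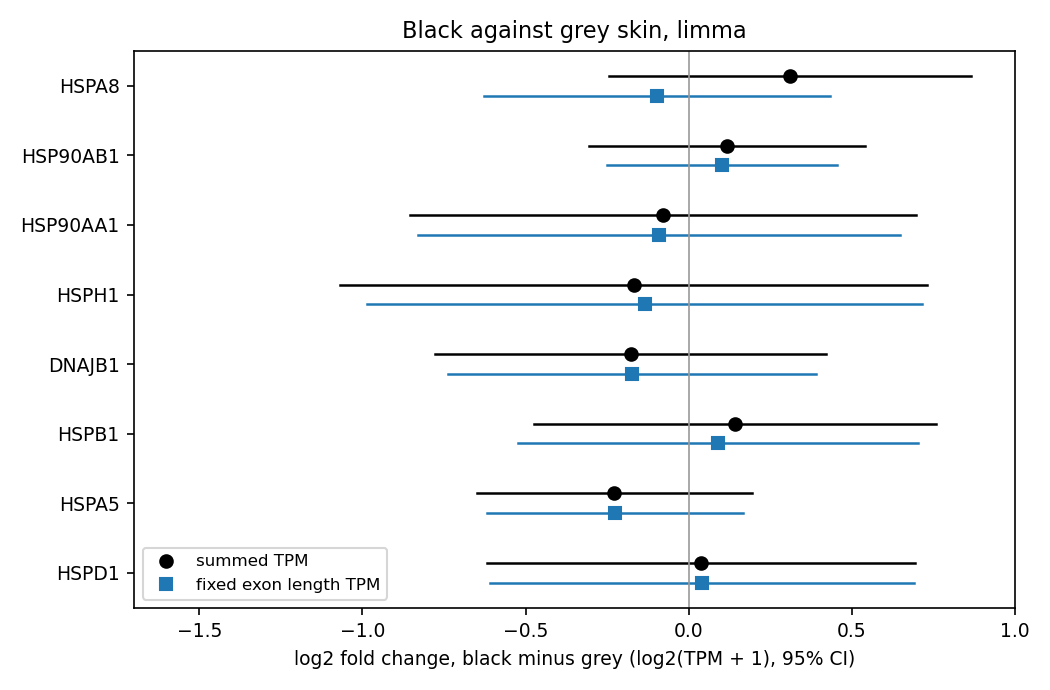
Log2 fold change, black minus grey, for each of the 8 genes on the log2(TPM + 1) scale, with 95% intervals from limma (3 libraries per colour). Black circles are summed TPM and blue squares are the fixed exon length; all 16 intervals include 0, and HSPA8 is the gene whose estimate changed side, 0.31 summed and -0.10 at fixed length.

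First exons were caught unevenly in the assemblies. For HSPD1, transcripts with a further 5′ exon held 12.5%, 4.85% and 100% of the gene's TPM in black 1 to 3, against 0%, 7.18% and 11.1% in grey 1 to 3. For HSP90AA1 that share was 100%, 7.70% and 8.93% in black, against 6.17%, 100% and 100% in grey. The rest of the TPM belonged to transcripts that started at 1 shared exon boundary, apart from 2.61 TPM of HSPD1 in black 2 whose first exon ran past it. Neither gene had a pattern that followed coat colour, and the level of HSP90AA1 was both low (black 1) and high (grey 2) where all of its TPM had the further exon.

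The libraries that were high differed from gene to gene. Black 2 was the highest library for HSP90AB1, HSP90AA1, HSPH1 and HSPD1, and grey 3 for DNAJB1 and HSPA5. In grey 3, HSPH1, DNAJB1, HSPB1 and HSPA5 lay above the mean of the 6 libraries, whereas HSP90AA1, HSP90AB1 and HSPD1 lay below it; HSPA8 lay below it in summed TPM and above it at fixed exon length. Grey 3 also had the highest level of S100A8, a neutrophil and inflamed epidermis gene, at 7795 TPM, beside 197 to 803 TPM in black and 110 to 151 TPM in the other grey libraries. Of the neutrophil list, 2 of 5 genes were measured; CSF3R, the more specific of them, ran from 0.570 to 2.92 TPM in black and from 0.930 to 3.68 TPM in grey, with its highest value in grey 3. Immediate early genes, which respond to handling within minutes, summed to 233, 304 and 240 TPM in black, against 271, 258 and 433 TPM in grey, and fibroblast markers summed to 2329 to 2733 TPM in black, against 972 TPM in grey 3 and 2327 to 3635 TPM in the other grey libraries. The part of these in the chaperone levels of grey 3 was not tested.

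**Figure D4:**
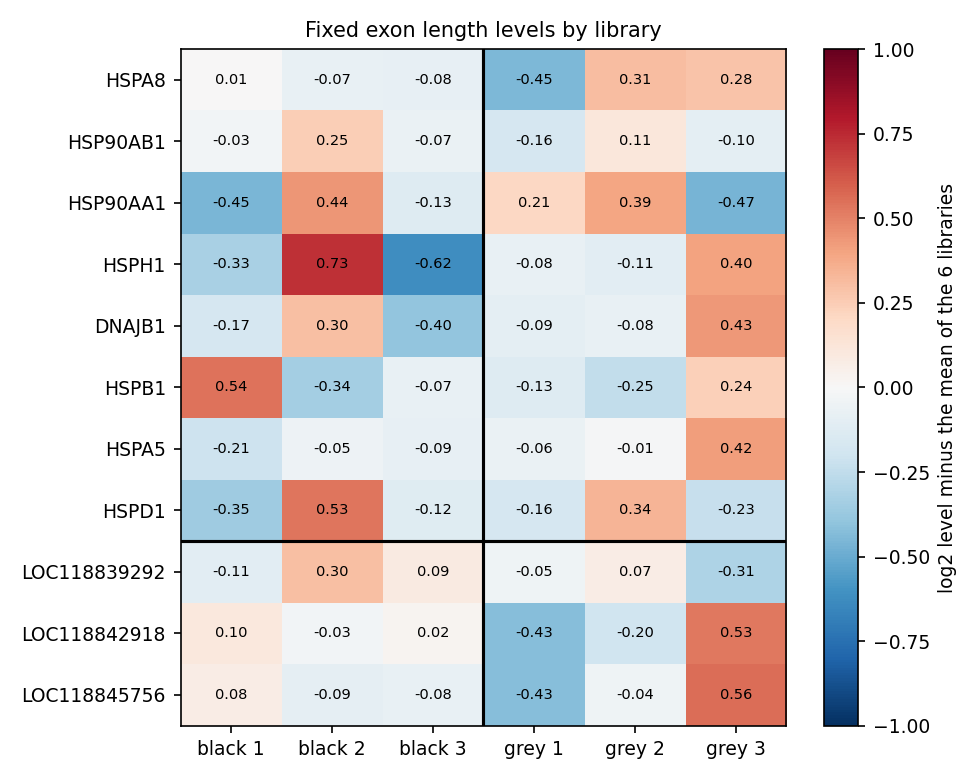
Deviation of each gene's log2 level, at fixed exon length, from its mean over the 6 libraries. Black libraries are left of the line and grey libraries right, and red is higher. The 8 measured genes are above. Below are the locus beside HSPD1 and both loci whose single-exon transcripts carried the name HSPA8. Black 2 is red for HSPH1 (0.73), HSPD1 (0.53) and HSP90AA1 (0.44), and grey 3 is red for DNAJB1 (0.43), HSPA5 (0.42) and HSPH1 (0.40) but blue for HSP90AA1 (-0.47).

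The order of the levels depended on the scale at the top only. In summed TPM, HSPA8 was above HSP90AB1 in 6 of 6 libraries (739 ± 168 and 555 ± 72.1 TPM, mean ± SD, n = 6). At fixed exon length, HSP90AB1 was above HSPA8 in 6 of 6 libraries (716 ± 78.2 and 370 ± 68.9 TPM), and HSPA8 was above HSPA5 in 4 of 6. Below them came HSPA5, HSP90AA1, HSPB1, DNAJB1 and HSPD1 on both scales, neighbours that changed places between libraries: HSPA5 exceeded HSP90AA1 in 3 of 6 and DNAJB1 exceeded HSPD1 in 3 of 6. HSPH1 was the lowest in all 6 libraries. HSPD1 was 4.03 times as high in the means of summed TPM and 7.22 times as high at fixed exon length. The fixed length of HSPH1 was 6752 bases, against 3234 to 3663 in the highest transcript of each library. A transcript of 4107 bases in grey 3, at 7.40 TPM, lengthened it, which lowers HSPH1 on that scale.

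Compared by class, the inducible cytosolic genes (HSP90AA1, HSPH1, DNAJB1 and HSPB1) summed to 581, 726 and 512 TPM in black, against 599, 631 and 631 TPM in grey. The constitutive genes (HSPA8 and HSP90AB1) summed to 1518, 1586 and 1104 TPM in black, against 1098, 1345 and 1108 TPM in grey. The log2 ratio of inducible to constitutive was -1.38, -1.13 and -1.11 in black, against -0.87, -1.09 and -0.81 in grey. The colours did not overlap, but black 3 and grey 2 lay next to each other, and the separation was not kept at fixed exon length, where the ratios were -0.55, -0.46 and -0.67 in black, against -0.26, -0.63 and -0.52 in grey. The difference in means, black minus grey, was -0.28 on the summed scale and -0.09 at fixed length.

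The ER gene HSPA5 over the 6 cytosolic genes gave log2 ratios of -3.17, -3.17 and -2.73 in black, against -2.77, -2.88 and -2.30 in grey. The highest was grey 3 and the groups overlapped; the difference in means was -0.37, or -0.22 at fixed exon length and -0.19 in summed TPM without grey 3. The mitochondrial class held HSPD1 alone, and its log2 ratio to the cytosolic genes was -4.20, -3.44 and -3.63 in black, against -3.72, -3.46 and -3.78 in grey. That difference was -0.10, or 0.05 at fixed exon length and 0.12 in summed TPM without black 1, all smaller than the spread within a colour. Together the 8 genes made up 0.271%, 0.308% and 0.221% of the TPM assigned to genes in black, against 0.236%, 0.273% and 0.249% in grey.

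**Figure D5:**
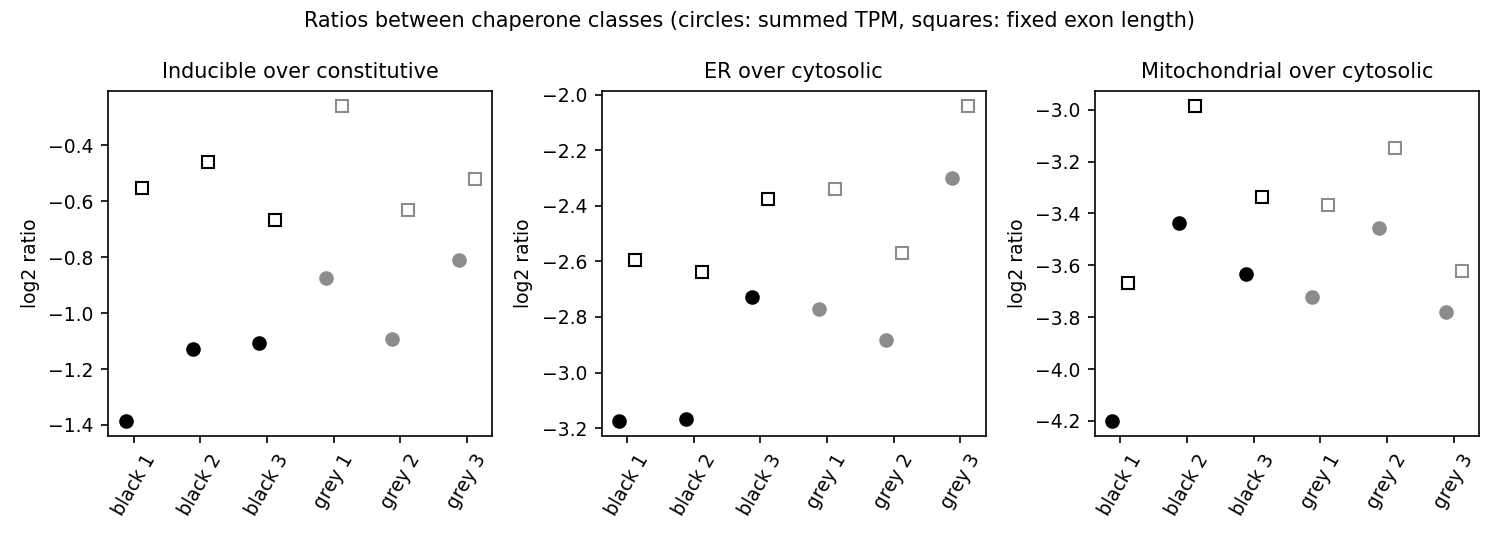
Log2 ratio of inducible to constitutive, ER to cytosolic and mitochondrial (HSPD1 only) to cytosolic chaperone levels in each library, black left and grey right. Circles are summed TPM and squares are the fixed exon length; in the first panel the black circles (-1.38 to -1.11) lie below the grey circles (-1.09 to -0.81), while the squares of both colours overlap.

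The wider chaperone system was described from 8 lists holding 117 genes, of which 104 were tested. Of these, 0 passed the adjusted threshold in either direction, 3 had an unadjusted p under 0.05 (2.88%, beside 2.33% of all genes) and 7 had groups that did not overlap (6.73%, beside 6.39%). Their median log2 fold change was 0.05, beside 0.04 for all genes. At fixed exon length the counts were 0, 1 and 6.

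Among cytosolic HSP70 and J proteins, 0 of 19 tested genes passed. HSPA12A, a distant HSP70 relative, had the smallest unadjusted p, with 3.51, 3.30 and 3.18 TPM in black, against 6.44, 5.49 and 7.82 TPM in grey. The groups did not overlap, and the log2 fold change was -0.80 (limma adjusted p 1.00); at fixed exon length it was -0.54 and the groups overlapped. The HSP40 DNAJA1 had 34.1, 54.7 and 36.6 TPM in black, against 51.9, 56.2 and 72.0 TPM in grey (log2 fold change -0.53, and -0.16 at fixed length). The most abundant of the list, the HSP40 genes DNAJA2 and DNAJB6, averaged 94.0 and 87.6 TPM in black, against 90.7 and 79.9 TPM in grey. The stress-inducible HSP70 genes HSPA1A and HSPA1B matched no symbol and were not analysed here.

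Of the HSP70 and HSP90 cochaperones, 0 of 18 passed. FKBP5, an HSP90 partner of the glucocorticoid receptor that is itself raised by glucocorticoids, had 35.4, 41.2 and 16.8 TPM in black, against 37.4, 65.6 and 74.7 TPM in grey. Black 2 lay above grey 1, and the log2 fold change was -0.94 (95% interval -1.89 to 0.01) and -0.90 at fixed length; without black 3 it was -0.56. PTGES3 (p23), which closes the HSP90 clamp, had a log2 fold change of -0.48 that became 0.04 at fixed length. CDC37, which brings kinases to HSP90, averaged 220 ± 10.1 TPM in black and 195 ± 22.7 TPM in grey, and AHSA1, which speeds the HSP90 ATPase, 97.2 ± 3.21 TPM in black and 98.9 ± 9.36 TPM in grey (SD, n = 3 each).

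Small heat shock proteins were the list that varied most, with 0 of 7 tested genes called. CRYAB, a chaperone abundant in striated muscle, had 905, 114 and 85.2 TPM in black, against 129, 143 and 99.6 TPM in grey. HSPB3, a muscle member of the family, had 36.8, 0 and 2.76 TPM in black and was listed at 0 in all grey libraries. HSPB8, the partner of BAG3, had 153, 88.1 and 103 TPM in black, against 66.9, 92.6 and 107 TPM in grey. All 3 were highest in black 1, the library with muscle RNA, whose summed level for the list was 1215 TPM, beside 213 to 222 TPM in the other black libraries and 233 to 259 TPM in grey; the part of the muscle RNA was not tested. HSPB6, another muscle-expressed member, went the other way, listed at 0 in black 1 and black 2 and at 6.60 TPM in black 3, against 14.4, 5.64 and 9.02 TPM in grey (log2 fold change -2.36, limma adjusted p 1.00).

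In the chaperonin TRiC and its partner prefoldin, which fold actin and tubulin, 0 of 14 genes passed. PFDN6 averaged 199 TPM in black and 194 TPM in grey, and CCT8 averaged 185 TPM in black and 172 TPM in grey. PFDN1 had 117, 83.5 and 93.2 TPM in black, against 69.7, 81.9 and 80.6 TPM in grey, groups that did not overlap (log2 fold change 0.32, and 0.19 without black 1). VBP1 had 80.2, 66.5 and 74.0 TPM in black, against 10.1, 67.2 and 53.3 TPM in grey, so its log2 fold change of 1.11 rested on grey 1, and without that library it was 0.29.

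ER chaperones gave 0 calls among 21 genes. CALR, a lectin chaperone, averaged 362 ± 44.5 TPM in black and 335 ± 14.8 TPM in grey, and its partner oxidoreductase PDIA3 350 ± 27.0 TPM in black and 343 ± 23.3 TPM in grey (SD, n = 3 each). HYOU1, the nucleotide exchange factor of HSPA5, had 25.2, 29.1 and 25.7 TPM in black, all below 30.3, 30.2 and 43.3 TPM in grey (log2 fold change -0.35, -0.36 at fixed length and -0.18 in summed TPM without grey 3). DNAJB11, a J protein that works with HSPA5, was above grey in all black libraries, with 47.6, 52.3 and 55.0 TPM in black, against 42.4, 44.5 and 27.5 TPM in grey, but its log2 fold change of 0.46 was 0.09 at fixed length, where the groups overlapped, and 0.24 in summed TPM without grey 3.

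Mitochondrial chaperones and proteases gave 0 calls among 11 genes. HSPA9 had 116, 92.8 and 86.8 TPM in black, against 93.6, 93.5 and 93.9 TPM in grey, a grey range far narrower than that of HSPD1. GRPEL1, its nucleotide exchange factor, averaged 60.2 TPM in black and 57.3 TPM in grey. The log2 fold changes of CLPX, which unfolds proteins for the ClpP protease, and HSCB, a J protein of iron-sulphur cluster assembly, were 0.14 and 0.23.

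Regulators of the heat shock and unfolded protein responses gave 0 calls among 12 tested genes. HSF1, the main heat shock transcription factor, had 18.7, 13.7 and 14.3 TPM in black, against 10.5, 11.7 and 14.1 TPM in grey (log2 fold change 0.34, 0.08 at fixed length and 0.20 in summed TPM without black 1). ATF4 had 230, 134 and 148 TPM in black, against 133, 180 and 191 TPM in grey, and XBP1 had 138, 156 and 142 TPM in black, against 130, 145 and 197 TPM in grey. Both act downstream of ER stress, ATF4 being highest in black 1 and XBP1 in grey 3. CREB3L2, an ER-bound transcription factor, had a log2 fold change of -0.17, and -0.07 without grey 1. SQSTM1, an autophagy receptor for protein aggregates, averaged 196 TPM in black and 208 TPM in grey (log2 fold change -0.08).

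The genes most like the inducible set across libraries were chosen by Pearson r over the 6 libraries with the mean standardized level of HSP90AA1, HSPH1, DNAJB1 and HSPB1, among 7283 genes of at least 10 TPM. They were MARVELD1 (0.98), EXOSC3, an RNA exosome subunit (0.97), TCF20 (0.97), TTC9C (0.95) and PSMC6, a proteasome ATPase (0.95). The mean standardized level was -0.15, 0.69 and -0.78 in black 1 to 3, against -0.15, -0.10 and 0.49 in grey 1 to 3. This mean was high in black 2 and grey 3 and low in black 3, but not all of its 4 genes followed it. HSPB1 was lower in black 2 (140 TPM) than in black 3 (155 TPM), and HSP90AA1 was lowest in grey 3 (168 TPM). With 6 points and this many genes searched, such values of r are a description of these libraries.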

How the data were processed

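Transcript files of 6 ear skin libraries were used, 3 black and 3 grey. The authors trimmed reads with Trim Galore (0.6.10, Phred 20), mapped them with HISAT2 (2.2.1), took out amplicon reads that came in through a shared index, and assembled each library with StringTie (2.2.0); the deposited TPM and coverage values are per assembled transcript, so no count test was used. Aligned bases were taken from the ratio of coverage to FPKM in the files.

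The RefSeq table gives gene spans without strand or exons. These were inferred from transcripts matching a span (joint overlap of at least 0.5, or 80% of one inside the other), and each transcript went to the gene on its strand sharing most exon bases; 231081 of 274079 transcripts were assigned, to 17984 genes. TPM was summed per gene. Genes averaging 1 TPM or more were compared with limma 3.58.1 (R 4.3.3; eBayes with trend) on log2(TPM + 1), which understates changes of low genes, with Benjamini-Hochberg adjustment. A listing at 0 can be a failed assembly. The script was tested on simulated data with the means and spread of these libraries. Of 200 changed genes, 0% were recovered at a 2-fold change and 76.7% at a 4-fold change.

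HSPE1 was not found, so the mitochondrial class deviates from the plan and holds HSPD1 only. At fixed exon length, coverage of a gene was divided by 1 length per gene. That length joined the exons of all transcripts holding at least 5% of the gene's TPM in their library. This scale was added after seeing the data. Alternatives were pseudocount 0.1, no filter, a filter of 5 TPM, median scaling, a replicate block, multi-exon transcripts, guide names only and leaving out each library. The members and lists were chosen with earlier results of these data known. Named genes were all members, and in each list the 2 of highest level, the 2 of smallest p and any called; 5 genes most like the inducible set; and markers where a member moved with them. HSP90B1 was added after its values were seen. The result of 1 list gene is not reported here. Figures used Python 3.11.15 with matplotlib 3.10.9.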

Additional observations from a re-analysis of the deposited data

How the results depend on the processing

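Of 153 alternative fits of the 8 chaperone genes, 129 kept the sign of the fold change, 24 reversed it and 0 passed the adjusted threshold (lowest limma adjusted p 0.99). Apart from leaving out libraries, only the fixed exon length reversed the sign of a gene: HSPA8 to -0.10 and PTGES3 to 0.036. It also moved the inducible to constitutive difference to -0.089. The mitochondrial to cytosolic difference of -0.10 was 0.048 at fixed length and 0.015 as a mean of log2 values. A gene assembled as several partial transcripts is counted more than once in a sum by construction.

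Without each library in turn, the log2 fold changes of summed TPM ran from -0.34 to 0.14 for HSP90AA1, from -0.57 to 0.11 for HSPH1, from -0.38 to 0.0025 for DNAJB1, from -0.10 to 0.30 for HSPB1, from -0.23 to 0.22 for HSPD1, from 0.18 to 0.54 for HSPA8, from -0.33 to -0.08 for HSPA5 and from 0.0031 to 0.21 for HSP90AB1. At fixed exon length they ran from -0.34 to 0.03 for HSPA8, from -0.35 to 0.11 for HSP90AA1, from -0.52 to 0.13 for HSPH1, from -0.16 to 0.28 for HSPB1 and from -0.21 to 0.23 for HSPD1. Against the sign of the summed fit, the other reversals at fixed length were -0.12, -0.085 and -0.081 for HSPA8 without black 1, 2 or 3 (the sign of its own fixed-length estimate, which only leaving out grey 2 or grey 3 turned, to 0.032 and 0.021), 0.083 for HSP90AA1 and -0.0093 for HSPB1 without grey 2, 0.023 for HSPH1 without grey 3, and -0.031 and -0.065 for HSPD1 without grey 1 or grey 3. Those of SQSTM1 ran from -0.26 to 0.060, of CLPX from -0.011 to 0.27 and of HSCB from -0.060 to 0.46. Differences in class ratios ran from -0.36 to -0.19 for inducible to constitutive, from -0.52 to -0.19 for ER to cytosolic and from -0.26 to 0.12 for mitochondrial to cytosolic.

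Over the genes tested, deviations from the colour means were nearly uncorrelated between samples with the same replicate number (r -0.02, 0.01 and -0.05). The labels do not say what the number stands for, so these values cannot settle whether it pairs the libraries. With the replicate block, 0 of the 8 genes and 0 of the 104 list genes were called, as without it, and the log2 fold change of HSPA8 was 0.31. Over all genes the block called 0 genes (363 with an unadjusted p under 0.05), against 3 without it; a filter of 5 TPM gave 1, fixed exon length 7, guide names 0, and leaving out a library 0 to 3. Named by the guide annotation alone, only HSPA8 was present, as the single-exon transcripts of LOC118842918 and LOC118845756, with a log2 fold change of 0.03. With 3 libraries per colour and no read counts, precision is limited by the spread between libraries, in which animal, tissue mix and assembly cannot be told apart.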
